A study of Mus musculus with 16 samples.

Results

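ER+ luminal cells of the mouse mammary gland were compared between the nipple and the duct, with the cells summed within each dissected fragment. The cells were chosen by a marker rule: a cell was taken when its mean scaled expression of Krt18, Esr1, Pgr, Prlr, Cited1 and Foxa1 was higher than that of the gene sets used for basal, ER- luminal, fibroblast, myeloid and endothelial cells. The rule kept 253 of the 843 nipple and duct cells that passed the study's limits on spike-in share, UMIs and genes. Of these, 43 came from 4 nipple fragments (13, 7, 13 and 10 cells in fragments 21, 22, 23 and 24) and 210 from 6 duct fragments (41, 43, 28, 37, 26 and 35 cells in fragments 31, 32, 51, 52, 61 and 62), the numbers being those of the sample titles. The fragments were dissected singly from glands of C57BL/6 mice, which the study describes as 5 weeks old and as carrying Krt14-Cre, a recombinase driven by the promoter of a basal keratin, and the R26-mTmG reporter. Strain, age and alleles were the same in both groups, no treatment was given, and the labels do not tie fragments to mice, so p-values measure the spread between fragments only. All nipple titles begin with the digit 2 and all duct titles with 3, 5 or 6. The meaning of this digit is not given in the labels, and it cannot be told apart from location. Cells were sorted into wells holding a barcode and ERCC spike-in RNA, and the 3' end of transcripts was read with unique molecular identifiers (UMIs), each standing for 1 captured molecule.

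Luminal cells line the mammary ducts and are divided by whether they hold the estrogen receptor. ER+ luminal cells sense estrogen, progesterone and prolactin through Esr1, Pgr and Prlr, and pass the signal to neighbouring cells through secreted factors such as amphiregulin (Areg), Wnt4 and Rankl. They divide little in the adult gland, while in puberty the terminal end buds (TEBs) at the tips of the ducts drive growth. Near the nipple the ducts join and open through the skin. The comparison asked how far the transcriptome of these cells differed between the opening of the duct system and its trunk.

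The chosen cells carried the hormone receptors that give the class its name, although these values were used by the rule and are a description. Over all ER+ cells Prlr stood at 901 CPM (UMIs of a gene scaled to a total of 1000000), Cited1 at 1995, Foxa1 at 115, Pgr at 107 and Esr1 at 45.2. The same genes stood at 118, 246, 19.9, 16.3 and 10.4 CPM in ER- luminal cells and at 16.0, 49.8, 8.02, 3.05 and 1.72 CPM in basal cells. A UMI of Prlr was found in 100% of the chosen cells, of Cited1 in 96.4%, of Pgr in 66.4%, of Foxa1 in 65.6% and of Esr1 in 53.0%. Elf5 and Kit, which mark ER- luminal progenitors, were found in 1.58% and 4.35% of them. The score of the class exceeded that of the next class by under 0.25 in 5 of 43 nipple and 19 of 210 duct cells, the closest by 0.0195 and 0.00295, while 2 nipple and 6 duct cells of other classes had ER+ as the next class within that distance, the closest by 0.116 and 0.0204.

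Hormone receptor levels lay in overlapping ranges in the nipple and duct fragments. For each gene below, the values of the nipple fragments are given in the order 21, 22, 23 and 24, and those of the 6 duct fragments as the lowest, the median and the highest. Prlr, the prolactin receptor, stood at 908, 1074, 803 and 929 CPM in the nipple fragments and 784, 956 and 1074 CPM in the duct fragments. Esr1 stood at 154, 47.4, 35.8 and 73.5 CPM in the nipple fragments and 25.6, 38.2 and 45.9 CPM in the duct fragments, and its highest value was that of nipple fragment 21. Pgr stood at 129.6 ± 34.2 against 109 ± 28.5 CPM (mean ± SD) and Foxa1, the factor that opens chromatin for the estrogen receptor, at 135 ± 63.2 against 120.1 ± 33.8 CPM. Cited1, a transcriptional co-activator of the estrogen receptor, stood at 1547, 1433, 1338 and 1331 CPM in the nipple fragments and 1341, 2286 and 2701 CPM in the duct fragments, so that nipple fragments 23 and 24 lay below all duct fragments and fragments 21 and 22 within their range. Krt18, the keratin of both luminal kinds, stood at 4486 ± 768 against 5892 ± 579.6 CPM. These genes chose the cells, and no test of them is used.

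ER+ cells made up 7.95% to 15.5% of the cells kept from a nipple fragment and 32.2% to 50% of those kept from a duct fragment, while fibroblasts numbered 121 of 342 nipple and 37 of 501 duct cells. Fewer of the sorted cells of a nipple fragment were ER+ (10.75 ± 2.87 against 35 ± 6.84, SD, n = 4 and 6, two-sided exact permutation p = 0.00952, the smallest that 210 arrangements allow). Similar numbers of sorted cells were kept per fragment, 84 to 88 in nipple and 77 to 88 in duct. These counts are therefore shares of the sampled cells, which fall as other classes rise, and not the number of ER+ cells in a fragment. The median depth per ER+ cell was 45274 ± 10545 UMIs in nipple and 34980 ± 10344 in duct fragments (exact permutation p = 0.171), and the median number of genes detected 3678 ± 383 and 3532 ± 272 (exact permutation p = 0.457). The sums held 301702 to 719986 UMIs in nipple and 995061 to 1534664 UMIs in duct, so nipple values rest on fewer molecules. Ribosomal protein genes took 14.6% to 16.3% and 14.7% to 15.9% of UMIs, and spike-ins 0.642% to 0.807% and 0.523% to 0.762%. All 95 barcode numbers occurred in more than 1 library and 0 pairs of cells had identical counts. In such sums, fewer cells of a type and less RNA per cell cannot be told apart.

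Markers of fibroblasts moved with location within the ER+ sums. The summed level of 15 fibroblast genes was 1970 to 3068 CPM in the nipple and 333 to 853 CPM in the duct fragments. All 15 genes had a higher rate in nipple with the ER+ sums of each location pooled. The summed level was 26162 against 5266 CPM when all cells of the location were pooled. Basal markers summed to 199 to 829 and 265 to 1263 CPM, ER- luminal markers to 315 to 1586 and 342 to 1536 CPM, and myeloid markers to 36.4 to 85.2 and 30.1 to 75.6 CPM. Endothelial markers reached at most 24.8 CPM, with Kdr and Tie1 at 0, and those of lymphocytes at most 0.764 CPM. Pericyte and smooth muscle markers summed to 3.31 to 125 CPM in nipple and 9.98 to 66.2 CPM in duct, with 6 of 7 genes higher in nipple by pooled rate. Mast cell markers summed to 0 to 69.6 and 0 to 28.3 CPM, with 3 of 7 higher by pooled rate and Fcer1a at 0. From 16 fibroblast and myeloid genes, RNA of the rest of the fragment was estimated to make up 6.75% (SD 1.70, n = 4) of what a nipple and 8.09% (SD 3.77, n = 6) of what a duct ER+ cell showed. For each gene below, the share of its UMIs expected from other wells in the location with the higher level is given where it exceeded 10%.

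Of 9112 genes tested in ER+ sums, 189 (2.07%) were called at an adjusted p under 0.05, 86 (0.944%) higher in nipple and 103 (1.13%) higher in duct (edgeR quasi-likelihood test, Benjamini-Hochberg adjustment). The split turned to 98 higher in nipple and 91 higher in duct with RLE size factors, to 94 and 90 with library size alone and to 76 and 55 with TEB fragments left out of the fit. An unadjusted p under 0.05 was found for 1310 genes. Of all genes tested, 415 (4.55%) had nipple and duct fragments that did not overlap, and of the 189 called genes 146 did, 65 higher in nipple and 81 higher in duct. The 189 include 3 genes used by the marker rule (Cited1, Col1a1 and Col3a1), whose calls are not used. Differences exceeded 4-fold for 35 of the genes higher in nipple and 40 of those higher in duct. At least 50% of the UMIs in the higher location were expected from other wells for 17 genes called higher in nipple and 2 called higher in duct. Among the former were Sparc (548 ± 112 against 99.6 ± 29.1 CPM) and Col1a2 (379 ± 69.1 against 47.6 ± 19.3 CPM), which encode matrix proteins of fibroblasts and had the smallest p of all genes, with 57.3% and 65.8% expected from other wells. With those UMIs subtracted, Sparc was no longer called (log2 difference 5.13, edgeR adjusted p = 0.0772), and 157 genes were called in all. Col1a2 kept its call in all 25 alternatives in which it was tested, the subtraction among them.

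**Figure D1:**
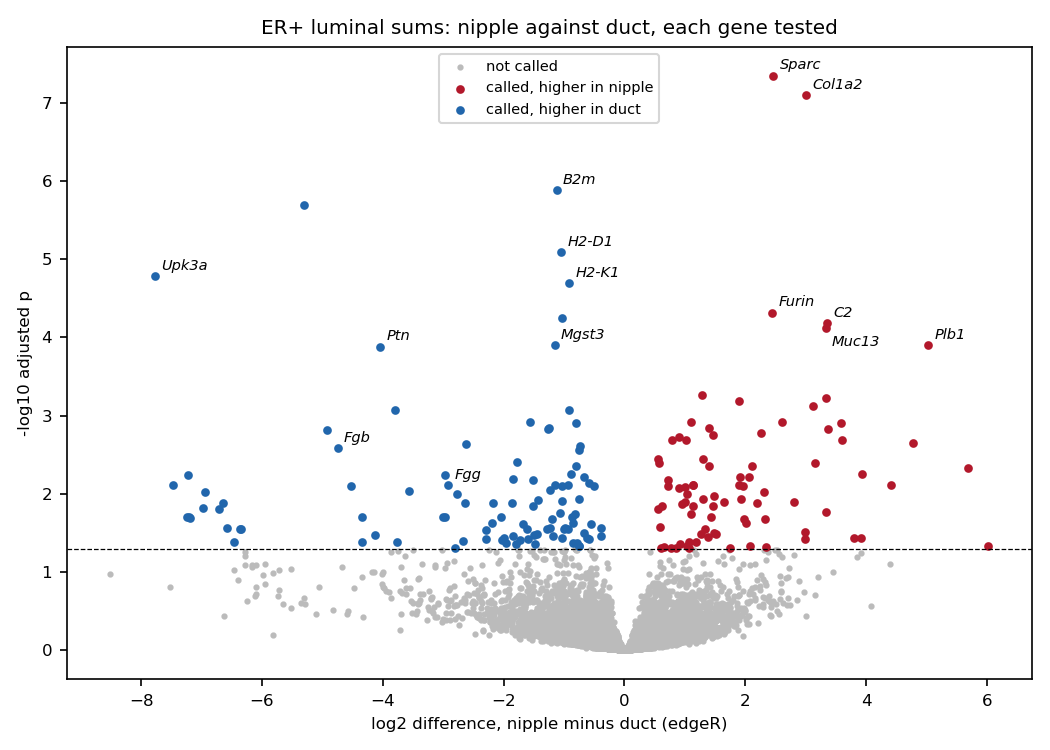
Each point is 1 of the genes tested in ER+ luminal sums, with the log2 difference of nipple minus duct on the x axis and −log10 of the adjusted p (edgeR) on the y axis. Red points are the genes called higher in nipple and blue points those called higher in duct, and the dashed line is an adjusted p of 0.05. Plb1, Muc13, C2 and Furin stand out to the right and Upk3a, Ptn and Fgb to the left, while B2m, H2-D1 and H2-K1 combine a difference of about 1 on the log2 scale with some of the smallest p-values.

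Nipple ER+ cells were set apart by Plb1, Muc13, C2 and Furin, with means from 5.44 to 33.6 times those of the duct. Plb1 (chr5:32232708-32366520, mm10), which encodes the phospholipase B1 of apical epithelial membranes, stood at 363, 329, 218 and 258 CPM in the nipple fragments and 4.48, 8.13 and 15.97 CPM in the duct fragments (log2 difference 5.03, SE 0.62, edgeR adjusted p = 0.000126). The lowest nipple fragment was well above the highest duct fragment, and 593 nipple and 66 duct UMIs lay behind these values. Muc13 (chr16:33794037-33819934), a transmembrane mucin of epithelial surfaces, stood at 1148, 871, 1075 and 1008 CPM in the nipple fragments and 72.01, 100.4 and 133 CPM in the duct fragments (log2 difference 3.33, SE 0.37, edgeR adjusted p = 7.50e-05). It was the most abundant of the 9 leading genes described, with a mean 10.02 times higher in nipple, and the fragments were far apart. C2 (chr17:34862604-34898265), a complement component that overlaps the neighbouring complement gene Cfb, stood at 103, 84.7, 67.5 and 183 CPM in the nipple fragments and 2.77, 10.7 and 17.4 CPM in the duct fragments (log2 difference 3.35, SE 0.48, edgeR adjusted p = 6.63e-05). Furin (chr7:80388585-80405436), the protease that activates many secreted precursors, stood at 266, 183, 132 and 187 CPM in the nipple fragments and 16.1, 38.3 and 51.7 CPM in the duct fragments (log2 difference 2.44, SE 0.34, edgeR adjusted p = 4.83e-05). None of these 4 had overlapping fragments, and leaving out any 1 fragment did not end their calls.

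Of the other 5 leading nipple genes, 4 lost their call without 1 fragment or another and Ccdc71l did not. Ifitm1, an interferon-induced membrane protein, stood at 122, 115, 19.3 and 19.7 CPM in the nipple fragments and 0.895, 4.02 and 9.001 CPM in the duct fragments (log2 difference 3.93, SE 0.81, edgeR adjusted p = 0.00558), with fragments 21 and 22 well above 23 and 24. A UMI of Ifitm1 was found in 9 of 43 nipple and 12 of 210 duct ER+ cells (20.9% and 5.71%). Among fibroblasts it was commoner, at 61 of 121 nipple and 10 of 37 duct cells (50.4% and 27.0%). Other wells were expected to give 9.68% of its nipple UMIs, and fibroblast RNA beyond this estimate was not tested. Cldn8, a tight junction claudin, stood at 37.5, 125, 39.96 and 48.4 CPM in the nipple fragments and 3.04, 12.5 and 20.1 CPM in the duct fragments (log2 difference 2.33, SE 0.57, edgeR adjusted p = 0.0208). Eif4ebp3, a repressor of translation whose locus joins that of Ankhd1, stood at 52.4, 44.04, 169 and 46.6 CPM in the nipple fragments and 5.67, 14.9 and 30.4 CPM in the duct fragments (log2 difference 2.20, SE 0.50, edgeR adjusted p = 0.0130). Single fragments, 22 for Cldn8 and 23 for Eif4ebp3, were high in these genes. Akap2, an anchor of protein kinase A that reads through to Palm2, rose to 52.8 ± 30.8 against 10.6 ± 5.76 CPM (log2 difference 2.32, SE 0.51, edgeR adjusted p = 0.00942), other wells accounting by estimate for 32.2% of it in nipple. Ccdc71l rose to 138 ± 39.8 against 28.5 ± 13.4 CPM (log2 difference 2.26, SE 0.41, edgeR adjusted p = 0.00168) without overlap of fragments. The call was lost without nipple fragment 21 (0.0532) for Ifitm1, without duct fragment 32 (0.0530) or nipple fragment 22 (0.149) for Cldn8, without nipple fragment 21 (0.0896) for Akap2 and without nipple fragment 23 (0.179) for Eif4ebp3, the edgeR adjusted p being in brackets. With a class score margin of 0.25, Ifitm1 (log2 difference 2.99, edgeR adjusted p = 0.111) and Cldn8 (edgeR adjusted p = 0.0693) were not called, nor was Akap2 once UMIs expected from other wells were subtracted (edgeR adjusted p = 0.0564). With 7 ER+ cells drawn from each fragment, 7 of the 9 leading nipple genes could be tested and Plb1 alone kept its call, Muc13 (0.0649) and C2 (0.0872) being nearest to it by edgeR adjusted p.

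In duct ER+ cells the leading genes were Upk3a, the fibrinogen chains Fgb and Fgg, and Ptn. Upk3a (chr15:85017141-85022547), a uroplakin known from the urothelial surface, stood at 1.87, 0, 2.76 and 0 CPM in the nipple fragments and 111, 322 and 570.3 CPM in the duct fragments (log2 difference -7.77, SE 0.69, edgeR adjusted p = 1.64e-05). Only 3 UMIs were found in all nipple sums against 2442 in the duct sums, a ratio of pooled rates of 233 (exact 95% counting interval 79.7 to 1132). Fgb (chr3:83040141-83049863) stood at 0, 67.8, 66.1 and 5.38 CPM in the nipple fragments and 337, 950.2 and 1227 CPM in the duct fragments (log2 difference -4.75, SE 0.70, edgeR adjusted p = 0.00260). Fgg (chr3:83007724-83015049), which lies next to it and encodes another chain of the clotting protein fibrinogen, stood at 345, 64.4, 218 and 402 CPM in the nipple fragments and 579.5, 2141 and 2959 CPM in the duct fragments (log2 difference -2.91, SE 0.51, edgeR adjusted p = 0.00769). Nipple fragments differed among themselves in both chains, fragments 21 and 24 being low in Fgb and high in Fgg, yet all lay below the duct. Ptn (chr6:36714929-36810220), the secreted heparin-binding growth factor pleiotrophin, stood at 91.8, 3.39, 57.9 and 43.04 CPM in the nipple fragments and 569, 747 and 1408 CPM in the duct fragments (log2 difference -4.04, SE 0.43, edgeR adjusted p = 0.000131). Its mean was 17.6 times higher in duct, with no overlap, and no single fragment ended this call or those of Upk3a, Fgb and Fgg.

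The remaining leading duct genes were Syn2 (a synapsin, 7.72 ± 7.90 against 58.6 ± 34.2 CPM), Grb14 (an adaptor that binds the insulin receptor, 10.5 ± 15.5 against 65.7 ± 21.3 CPM) and Lrg1 (a secreted leucine-rich glycoprotein, 18.1 ± 15.1 against 75.3 ± 29.6 CPM). Cpsf6, of the mRNA 3' end processing machinery, and Grhpr, a glyoxylate reductase, completed the leading duct genes described, at 21.4 ± 10.3 against 77.1 ± 19.9 CPM and 37.5 ± 25.2 against 126 ± 59.7 CPM. Their log2 differences were -2.96, -2.62, -2.20, -1.78 and -1.72, and their edgeR adjusted p-values 0.00569, 0.00230, 0.0233, 0.00386 and 0.0391. Lrg1 was not called without duct fragment 31 (0.0541), duct fragment 32 (0.0701), nipple fragment 21 (0.0739), nipple fragment 23 (0.0715) or nipple fragment 24 (0.0769), and Grhpr not without duct fragment 32 (0.0685), duct fragment 61 (0.0570), duct fragment 62 (0.0724), nipple fragment 22 (0.101) or nipple fragment 24 (0.0549) (edgeR adjusted p in brackets). When 7 cells were drawn per fragment, Upk3a, Ptn and Fgg kept their calls and the other 6 leading duct genes did not. With cells thinned to 5000 UMIs, Syn2, Grb14 and Grhpr were not called, and with TEB fragments left out of the fit Fgg and Grhpr were not.

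**Figure D2:**
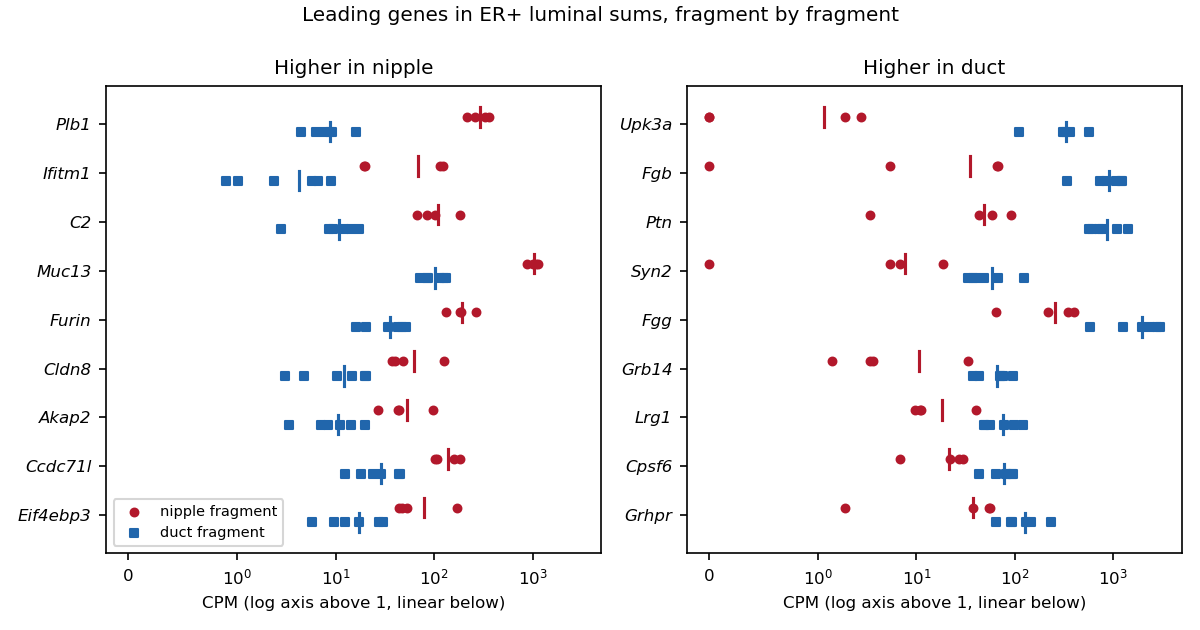
Levels of 9 leading genes of each direction in ER+ luminal sums, with CPM on the x axis (logarithmic above 1 and linear below). Each red point is 1 of 4 nipple fragments, each blue square 1 of 6 duct fragments and each vertical line the mean. In none of the genes shown do both locations overlap, and Muc13 (871 to 1148 CPM in nipple) and Fgg (579.5 to 2959 CPM in duct) reach the highest levels of their direction.

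TEB fragments hold ER+ cells of the growing tips and gave the levels of these genes at the ends of the ducts. They entered the fit through its filter on low counts, its scaling and its estimate of spread, and not through the contrast. Upk3a stood at 784, 1359.5 and 1649 CPM in the 6 TEB fragments (lowest, median and highest), Fgb at 763, 1016 and 1765 CPM and Ptn at 965, 1105 and 1303 CPM. Muc13 stood there at 10.03, 19.3 and 51.7 CPM, Plb1 at 0.831, 7.61 and 49.1 CPM and C2 at 0.818, 3.58 and 5.82 CPM. For these 6 genes the nipple fragments lay outside the TEB range, and in Upk3a the TEB fragments all lay above the duct ones. No test was run against TEB.

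Differences in Muc13, Plb1, Ptn, Fgg, Fgb, Upk3a and C2 were visible cell by cell. For this, each cell was thinned to 5000 UMIs, which left out 0 cells (median depth before thinning 45998 UMIs in nipple and 33224.5 in duct). Muc13 was detected in 38 of 43 nipple and 45 of 210 duct cells (88.4% and 21.4%, or 93.02% and 41.4% before thinning). Plb1 was detected in 16 of 43 nipple and 7 of 210 duct cells (37.2% and 3.33%, or 62.8% and 8.57% before thinning). Among thinned fibroblasts, which should lack these genes, the nipple and duct shares were 7.44% and 5.41% for Muc13 and 2.48% and 0% for Plb1. Ptn was detected in 4 of 43 nipple and 148 of 210 duct cells (9.30% and 70.5%, or 30.2% and 88.6% before thinning). Fgg was detected in 12 of 43 nipple and 179 of 210 duct cells (27.9% and 85.2%, or 51.2% and 92.9% before thinning). Fgb was detected in 2 of 43 nipple and 121 of 210 duct cells (4.65% and 57.6%, or 6.98% and 76.2% before thinning). Upk3a was detected in 0 of 43 nipple and 74 of 210 duct cells (0% and 35.2%, or 4.65% and 58.1% before thinning), and 0 of 43 allows a share of thinned cells with a UMI of up to 6.98%, for counting error only, which does not bound expression. Thinned fibroblasts held Upk3a in 0.826% and 2.70%, Fgb in 0% and 2.70% and Fgg in 2.48% and 24.3% of cells, so the nipple shares of Upk3a and Fgb were near those of a class that should lack them. Ptn, which fibroblasts also express, was found in 42.1% and 40.5% of thinned fibroblasts. By fragment, the thinned share of cells with Muc13 was 80% to 100% in nipple and 11.5% to 32.1% in duct, and that with Ptn 0% to 15.4% and 50% to 80.8%. C2 was found in 14.3% to 40% and 0% to 10.7%. Ifitm1 was found in few thinned ER+ cells, 2 of 43 in nipple and 4 of 210 in duct (4.65% and 1.90%). Thinned fibroblasts held Ifitm1 in 28.9% and 18.9% of cells. Cells of 1 fragment share their source, so these shares were not tested. Median fibroblast depth was 37611 UMIs in nipple and 32490 in duct.

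Genes that display peptides to T cells formed the pathway list with the most calls in 1 direction in ER+ cells. MHC class I molecules are a heavy chain, here H2-D1 or H2-K1, bound to beta-2 microglobulin (B2m), and carry peptides cut by the immunoproteasome (Psmb8) and moved into the endoplasmic reticulum by Tap1. Of 24 antigen presentation genes tested, 4 were called lower in nipple and 0 higher, against 1.13% of all genes called higher in duct. The median log2 difference of the list was -0.26, with 9 genes above 0, against -0.05 over all genes. B2m (chr2:122147686-122153083) stood at 1118, 1064, 1293 and 1707 CPM in the nipple fragments and 2409, 2819.8 and 3273 CPM in the duct fragments (log2 difference -1.12, SE 0.13, edgeR adjusted p = 1.30e-06). H2-D1 (chr17:35262730-35267499) stood at 541, 732, 624 and 852 CPM in the nipple fragments and 1099, 1439 and 1634 CPM in the duct fragments (log2 difference -1.05, SE 0.13, edgeR adjusted p = 8.21e-06). H2-K1 (chr17:33996017-34000347) stood at 541, 813, 594 and 664 CPM in the nipple fragments and 1036, 1193 and 1437 CPM in the duct fragments (log2 difference -0.91, SE 0.12, edgeR adjusted p = 2.05e-05). In all 3, every nipple fragment lay below every duct fragment, with duct means 2.18, 2.07 and 1.88 times higher. Heavy chain genes are close copies of each other, and how reads were divided between them is uncertain.

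Psmb8, named after its values were seen as the 1 further called gene of the list, stood at 129, 74.5, 143 and 183 CPM in the nipple fragments and 138, 269.8 and 356 CPM in the duct fragments (log2 difference -0.94, SE 0.24, edgeR adjusted p = 0.0284). Its fragments overlapped, and the call was lost without duct fragment 52 (0.0559), duct fragment 61 (0.0679), duct fragment 62 (0.0730), nipple fragment 21 (0.0745) or nipple fragment 22 (0.0958) by edgeR adjusted p. B2m and H2-D1 kept their calls in all 26 alternatives and H2-K1 in all but the draw of 7 cells per fragment (edgeR adjusted p = 0.289). Tap1, also named after its values were seen, stood at 18.7, 16.9, 12.4 and 10.8 CPM in the nipple fragments and 23.3, 34.3 and 37.9 CPM in the duct fragments, without overlap and without a call (log2 difference -1.16, SE 0.40, edgeR adjusted p = 0.144). MHC class II genes were at low levels in both locations, H2-Ab1 at 26.2 ± 6.99 against 27.2 ± 11.01 CPM and Cd74 at 30.1 ± 12.7 against 24.5 ± 14.2 CPM, with overlapping fragments. Other wells were expected to give 56.2% of H2-Ab1 in duct and 84.7% of Cd74 in nipple. Myeloid markers, whose cells carry much class II RNA, summed to at most 85.2 CPM in any nipple fragment.

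Promoters of the class I pathway are known to hold elements bound by interferon regulatory factors, so the letters GAAANNGAAA were searched on both strands in RefSeq promoter windows (GRCm38.p6, 250 bases before to 50 after the start). They were present in 248 of 6868 windows of tested genes (3.61%), in 5 of 20 of the antigen presentation genes (25%), in 1 of 76 of the genes called higher in duct (1.32%) and in 0 of 63 of those called higher in nipple. The stretches of B2m, the called gene with a match, and of Psme1, a proteasome activator subunit with a match that was not called, are shown with the matching letters in capitals.
B2m, chr2:122147540-122147565, + strand: aagaacatGAAACTGAAAatgggaaa
Psme1, chr14:55578495-55578520, + strand: agctgtgcTTTCGCTTTCccttcccg
The B2m match starts 139 bases before the gene's start. The Psme1 match is to the opposite strand and lies 9 bases past the start. Psme1 stood at 264 ± 60.3 against 389.8 ± 117 CPM (log2 difference -0.56, SE 0.19, edgeR adjusted p = 0.149). Matches also lay in the windows of Ctss, Erap1 and H2-T23, with log2 differences of 0.41, -0.90 and -0.20 and without calls. A match of letters is a description and not evidence of a bound site.

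Hormone signalling lists held 0 or 2 calls each, where 2.07% of all genes tested were called and 1.13% were called higher in duct. Of 13 hormone receptor and cofactor genes tested (rule genes left out), 0 were called (median log2 difference -0.07), with 1 at an unadjusted p under 0.05 and 0 called by DESeq2. The gene with the smallest p was Greb1, an estrogen target, at 25.1 ± 25.1 against 7.28 ± 7.46 CPM (log2 difference 1.80, SE 0.87, edgeR adjusted p = 0.337). Of 11 hormone-responsive and paracrine genes, 2 were called lower in nipple (median 0.07). Fgfr2, a fibroblast growth factor receptor, stood at 86.2, 40.7, 62.01 and 62.8 CPM in the nipple fragments and 100.4, 128 and 175 CPM in the duct fragments (log2 difference -1.07, SE 0.25, edgeR adjusted p = 0.0174). Wnt5a, a ligand of noncanonical Wnt signalling, stood at 20.6, 13.6, 8.27 and 12.6 CPM in the nipple fragments and 24.2, 37.4 and 71.8 CPM in the duct fragments (log2 difference -1.67, SE 0.41, edgeR adjusted p = 0.0243). Fragments did not overlap in either gene, but the call was lost without nipple fragment 22 (0.0543) for Fgfr2 and without duct fragment 32 (0.0635), duct fragment 51 (0.0598), nipple fragment 23 (0.0826) or nipple fragment 24 (0.0596) for Wnt5a (edgeR adjusted p in brackets). With cells thinned to 5000 UMIs or TEB fragments left out of the fit neither was called. Areg, the main paracrine signal of estrogen in the pubertal gland, was abundant in both locations at 2738, 2422, 3157 and 2975 CPM in the nipple fragments and 2336, 2422 and 2764 CPM in the duct fragments (log2 difference 0.19, SE 0.11, edgeR adjusted p = 0.497). Of 13 genes of prolactin and JAK-STAT signalling 0 were called by edgeR and 2 by DESeq2, with 2 at an unadjusted p under 0.05 (median 0.22). The smallest p was that of Socs3, an inhibitor of this pathway, at 245, 64.4, 116 and 46.6 CPM in the nipple fragments and 33.2, 51.6 and 55.2 CPM in the duct fragments (log2 difference 1.30, SE 0.38, edgeR adjusted p = 0.0764), which was called without nipple fragment 24 (0.0240).

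The calls of the next lists lie beside 0.944% of all genes called higher in nipple and 1.13% called higher in duct. Among 24 luminal keratin and junction genes, 1 was called higher in nipple (Cldn8) and 1 lower, with a median log2 difference of -0.32. Only 5 of the 24 had a log2 difference above 0. An unadjusted p under 0.05 was found for 11 of the 24, against 1303 of 9092 over all genes tested with rule genes left out. Tjp1, the tight junction scaffold ZO-1, stood at 18.7, 33.9, 6.89 and 1.79 CPM in the nipple fragments and 30.4, 59.9 and 78.1 CPM in the duct fragments (log2 difference -2.04, SE 0.49, edgeR adjusted p = 0.0196). Its ranges overlapped, and it was not called without nipple fragment 23 (0.0644) or nipple fragment 24 (0.0628) (edgeR adjusted p). Of 21 suprabasal epidermis genes, 1 was called higher in nipple (median 0.09). Perp, a desmosomal protein of stratified epithelia, stood at 577, 549, 469 and 570.3 CPM in the nipple fragments and 259, 336 and 396 CPM in the duct fragments (log2 difference 0.73, SE 0.16, edgeR adjusted p = 0.00788), every nipple fragment above every duct fragment. Perp was not called without the duct fragments whose title begins with 5 (0.0708) or with 7 cells per fragment (0.111), by edgeR adjusted p. The summed level of 15 epidermal and hair follicle markers was 729 to 1760 CPM in nipple and 887 to 1651 CPM in duct. Of 22 S100, annexin and galectin genes, 2 were called higher in nipple and 1 lower (median -0.06). The annexin Anxa3 stood at 822, 637, 619 and 673 CPM in the nipple fragments and 305, 357 and 474 CPM in the duct fragments (log2 difference 0.91, SE 0.17, edgeR adjusted p = 0.00189). The calcium-binding S100a1 stood at 142, 98.2, 197 and 274 CPM in the nipple fragments and 289, 344 and 406 CPM in the duct fragments (log2 difference -0.94, SE 0.20, edgeR adjusted p = 0.00769). Fragments overlapped in neither. S100a4 stood at 135, 50.8, 17.9 and 3.59 CPM in the nipple fragments and 2.69, 6.79 and 13.4 CPM in the duct fragments (log2 difference 2.81, SE 0.64, edgeR adjusted p = 0.0128). Other wells were expected to give 17.3% of its nipple signal, and without nipple fragment 21 (0.280) it was not called. With a class score margin of 0.25 its log2 difference was 1.71 (edgeR adjusted p = 0.220).

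Immune lists other than antigen presentation held 1 call each, beside 2.07% of all genes called. Of 27 interferon response genes, Isg20, an interferon-induced exonuclease, was called higher in nipple at 528, 268, 437 and 181 CPM in the nipple fragments and 96.4, 141 and 278 CPM in the duct fragments (log2 difference 1.13, SE 0.26, edgeR adjusted p = 0.0141), while the median of the list was -0.22 and 8 genes lay above 0. Its fragments overlapped, and the call was lost without nipple fragment 21 (0.106) or nipple fragment 23 (0.0555). Of 27 chemokine and mucosal defence genes, Wfdc2, a secreted protease inhibitor, was called lower in nipple at 1969, 1684, 2169 and 1992 CPM in the nipple fragments and 2266, 2613 and 2791 CPM in the duct fragments (log2 difference -0.39, SE 0.10, edgeR adjusted p = 0.0342), with a list median of 0.18. This small difference was not called without duct fragment 31 (0.0908), duct fragment 32 (0.0782), duct fragment 61 (0.0552), duct fragment 62 (0.0570), nipple fragment 21 (0.0634), nipple fragment 22 (0.116) or nipple fragment 24 (0.0590), nor by DESeq2 or with RLE size factors. Of 8 complement genes, C2 was called, with a list median of 0.67 and 6 genes above 0.

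Metabolic lists held calls of single enzymes, beside 2.07% of all genes called. Of 42 glutathione, aldehyde and redox genes tested, 2 were called higher and 2 lower in nipple (median -0.30). Mgst3, a microsomal glutathione transferase, stood at 82.4, 91.5, 106 and 82.5 CPM in the nipple fragments and 174, 202 and 234 CPM in the duct fragments (log2 difference -1.15, SE 0.17, edgeR adjusted p = 0.000126). Gsta2, another glutathione transferase and named after its values were seen, had 0 UMIs in nipple against 140 in duct, which is at least 13.4-fold lower taking 3 UMIs over the nipple sums (log2 difference -7.47, SE 1.58, edgeR adjusted p = 0.00769). Gsto1, a glutathione transferase of the omega class, stood at 592, 271, 496 and 335 CPM in the nipple fragments and 151, 202 and 267 CPM in the duct fragments (log2 difference 1.03, SE 0.19, edgeR adjusted p = 0.00204). Gpx4, the peroxidase that protects membrane lipids, stood at 912, 949, 845 and 843 CPM in the nipple fragments and 537, 589 and 655 CPM in the duct fragments (log2 difference 0.58, SE 0.11, edgeR adjusted p = 0.00403). Fragments of these 4 genes did not overlap and no single fragment ended their calls. Mgst3 was not called in thinned cells (edgeR adjusted p = 0.0608), nor were Mgst3 (0.396), Gsto1 (0.193) and Gpx4 (0.690) with 7 cells per fragment. Of 38 sterol and fatty acid synthesis genes, 1 was called (median -0.00). Acsl3, a fatty acyl-CoA synthetase, stood at 142 ± 28.2 against 62.3 ± 23.3 CPM (log2 difference 1.18, SE 0.31, edgeR adjusted p = 0.0408). Its call did not hold without duct fragment 32 (0.0550), duct fragment 51 (0.0521), duct fragment 52 (0.0673), duct fragment 61 (0.0870), duct fragment 62 (0.0916), nipple fragment 21 (0.109), nipple fragment 22 (0.0764) or nipple fragment 24 (0.0860). Of 8 milk protein and secretion genes, 1 was called (median -0.76). It was Csn3, kappa casein, which stood at 8.23 ± 4.59 against 62.2 ± 53.6 CPM (log2 difference -2.81, SE 0.74, edgeR adjusted p = 0.0489). Other wells were expected to give 75.9% of its duct signal. The call was lost without duct fragment 31 (0.0522), duct fragment 32 (0.0670), duct fragment 51 (0.0663), duct fragment 52 (0.0604), nipple fragment 21 (0.106), nipple fragment 22 (0.133), nipple fragment 23 (0.103) or nipple fragment 24 (0.1498).

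Proliferation and stress lists held no calls by edgeR or DESeq2, with 3, 3 and 5 genes at an unadjusted p under 0.05 in the lists as they follow. Over all genes tested, 2.07% were called by edgeR. Of 48 DNA replication and mitosis genes 0 were called, 8 had a log2 difference above 0 and the median was -0.55, against -0.05 over all genes. The smallest p was that of Tubb5, a tubulin, at 381 ± 105 against 561 ± 169 CPM (log2 difference -0.55, SE 0.21, edgeR adjusted p = 0.197). Mki67, the usual mark of cycling cells, stood at 7.51 ± 9.35 against 16.99 ± 20.96 CPM, with overlap and 10.3% expected from other wells. Of 16 cyclin and CDK inhibitor genes 0 were called (median -0.39), Ccng2 having the smallest p (log2 difference -1.60, SE 0.58, edgeR adjusted p = 0.174). Of 42 immediate early and stress genes, which respond to dissociation, 0 were called (median 0.13). Among them Fos stood at 841 ± 392 against 641 ± 106 CPM and Ddit3 had the smallest p (log2 difference 1.30, SE 0.48, edgeR adjusted p = 0.178), with 10.2% expected from other wells.

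Lists of other signalling pathways held at most 1 call each, beside 2.07% of all genes called. The 17 Wnt genes held the call of Wnt5a (median -0.01). For the 10 EGF family genes (median -0.10), the 14 Notch genes (median 0.36), and the 10 semaphorin, Slit and netrin genes (median 0.51), 0 were called by edgeR and 0, 0 and 1 by DESeq2, and 0, 2 and 2 had an unadjusted p under 0.05. The smallest p-values were those of the EGF receptor ligand Tgfa (log2 difference 1.38, SE 0.75, edgeR adjusted p = 0.411), the Notch target Hes1 (log2 difference -0.47, SE 0.15, edgeR adjusted p = 0.107) and Sema4c (log2 difference 2.70, SE 0.88, edgeR adjusted p = 0.117). Hes1 was called without nipple fragment 23 (0.0341) and Sema4c without duct fragment 32 (0.0411) (edgeR adjusted p). Of 23 TGF-beta and BMP genes, Ltbp1, which binds latent TGF-beta in the matrix, was called higher in nipple at 155, 108, 71.7 and 169 CPM in the nipple fragments and 13.97, 30.8 and 44.3 CPM in the duct fragments (log2 difference 2.10, SE 0.42, edgeR adjusted p = 0.00438, list median -0.05). Its fragments did not overlap, and 11.9% of the nipple signal was expected from other wells. Ltbp1 kept its call whichever fragment was left out.

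Single genes of the matrix and growth factor binding lists were called together with fibroblast markers, where 0.944% of all genes were called higher in nipple. Of 11 IGF genes, 2 were called higher in nipple (median -0.34). Igfbp7 stood at 84.00 ± 56.3 against 9.35 ± 12.7 CPM (log2 difference 3.15, SE 0.63, edgeR adjusted p = 0.00403). Igfbp6, which like it binds insulin-like growth factors, stood at 85.01 ± 19.2 against 20.4 ± 5.54 CPM (log2 difference 2.06, SE 0.43, edgeR adjusted p = 0.00611). Of 10 metalloproteinase and TIMP genes, Mmp2, a gelatinase, was called higher in nipple at 43.8 ± 16.1 against 4.23 ± 1.86 CPM (log2 difference 3.37, SE 0.61, edgeR adjusted p = 0.00150, list median 0.75). Other wells were expected to give 70.6%, 112% and 111% of the nipple UMIs of Igfbp7, Igfbp6 and Mmp2. With these UMIs subtracted Igfbp6 had a log2 difference of -3.24 (edgeR adjusted p = 0.229). Of 24 basement membrane and integrin genes 0 were called by edgeR or DESeq2 and 2 had an unadjusted p under 0.05 (median 0.27). The smallest p was that of Col4a2, a collagen IV chain, at 39.8 ± 29.7 against 15.1 ± 6.86 CPM (log2 difference 1.40, SE 0.57, edgeR adjusted p = 0.239), with 60.1% expected from other wells. Of the 10 fibroblast markers tested 6 were called higher in nipple (median 2.29). The part of fibroblast RNA in genes with lower expected shares was not tested beyond this estimate.

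**Figure D3:**
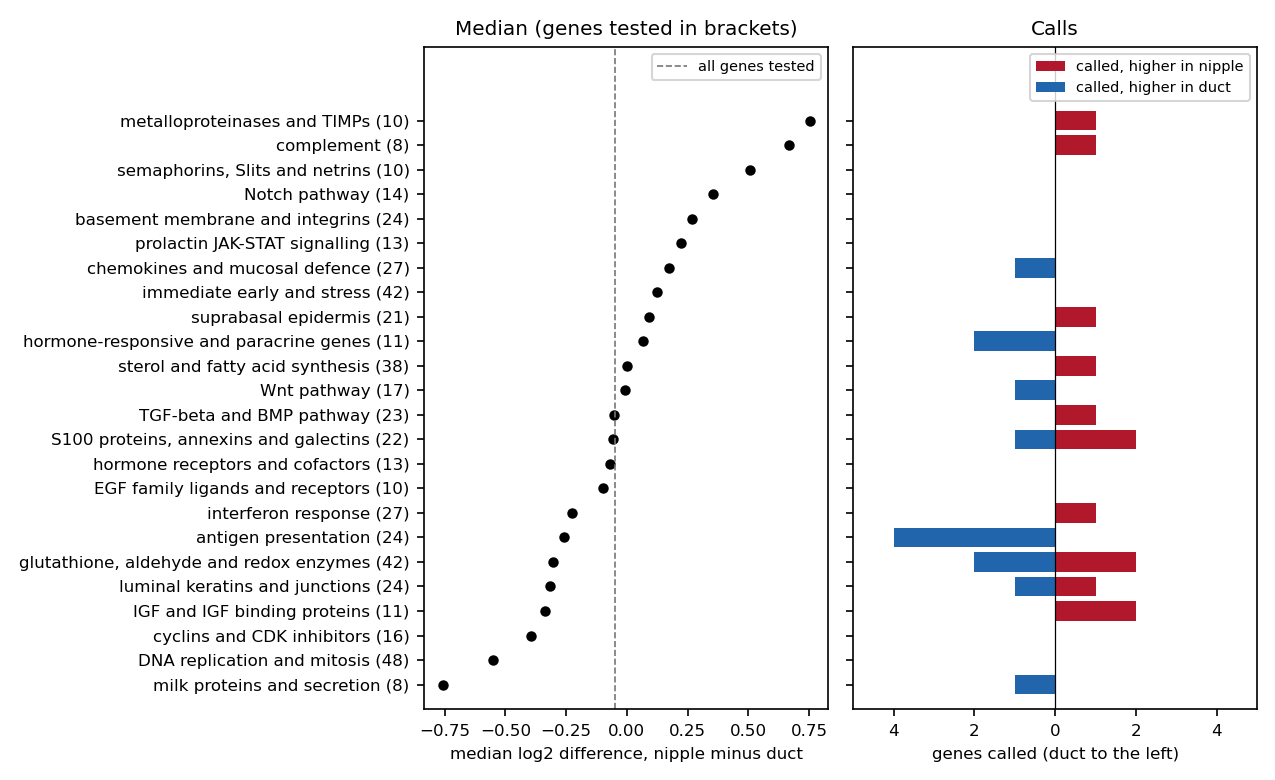
Gene lists in ER+ luminal sums. The left panel gives the median log2 difference of nipple minus duct of each list, with the number of genes tested in brackets and the median of all genes as a dashed line. The right panel counts the called genes, higher in nipple in red and higher in duct in blue, and antigen presentation has the most in 1 direction, 4 of 24.

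Whether the differences were those of the whole epithelium was tested against the other luminal class and the basal cells of the same fragments. ER- luminal cells numbered 146 and basal cells 224 in nipple and duct. The class by location term is the nipple minus duct difference in ER+ cells minus that in the other class, with the fragment as a block. Against ER- luminal cells it was called for 25 of 8966 genes (0.279%), 8 positive and 17 negative (14 and 12 without nipple fragment 23), and 735 genes had an unadjusted p under 0.05. Against basal cells it was called for 108 of 9607 genes (1.12%), 76 positive and 32 negative, a balance that turned to 46 and 57 without duct fragment 31, 39 and 48 without duct fragment 52 or nipple fragment 21, and 37 and 41 without nipple fragment 24, with 1118 at an unadjusted p under 0.05. Of the genes called in ER+ cells, the term was called for 8 of the 186 tested against ER- and for 20 of the 185 tested against basal cells. Of those that could be tested in the other class alone, 19 of 142 were also called in ER- and 31 of 143 in basal cells, each in the same direction (rule genes included). Over all genes, 84 of 6593 tested were called in ER- cells and 394 of 7185 in basal cells. The 19 are 22.6% of those 84, and the 31 are 7.87% of those 394.

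The location difference of ER+ cells differed from that of both other epithelial classes for H2-D1 and Ptn, from that of ER- luminal cells for H2-K1 and from that of basal cells for B2m. H2-D1 stood in ER- luminal cells at 1002 ± 129 CPM in nipple and 838 ± 63.9 CPM in duct (term -1.29, SE 0.20, edgeR adjusted p = 0.000404) and in basal cells at 580.2 ± 80.8 CPM in nipple and 419 ± 45.8 CPM in duct (term -1.47, SE 0.27, edgeR adjusted p = 0.00387). H2-K1 stood at 908 ± 375 CPM in nipple and 679 ± 38.5 CPM in duct in ER- luminal (term -1.24, SE 0.19, edgeR adjusted p = 0.000404) and at 522 ± 116 CPM in nipple and 369 ± 63.1 CPM in duct in basal cells, where the term was not called (term -1.35, SE 0.34, edgeR adjusted p = 0.0584). B2m stood at 1216 ± 123 CPM in nipple and 1219 ± 214 CPM in duct in basal cells (term -1.09, SE 0.17, edgeR adjusted p = 0.000413). It stood at 723 ± 348 CPM in nipple and 1070.4 ± 286 CPM in duct in ER- luminal cells, where the term was not called (term -0.48, SE 0.20, edgeR adjusted p = 0.530). Lower class I heavy chain levels in nipple were seen in ER+ cells and not in the means of either other class. Ptn stood in basal cells at 226 ± 33.3 CPM in nipple and 219 ± 53.9 CPM in duct (term -4.19, SE 0.37, edgeR adjusted p = 1.64e-06) and in ER- luminal cells at 182 ± 80.5 CPM in nipple and 210.2 ± 83.8 CPM in duct (term -4.01, SE 0.67, edgeR adjusted p = 0.0257). The latter term was not called without duct fragment 62 (0.0753), nipple fragment 23 (0.105) or nipple fragment 24 (0.0903), or with TEB fragments left out of the fit (0.101), by edgeR adjusted p.

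**Figure D4:**
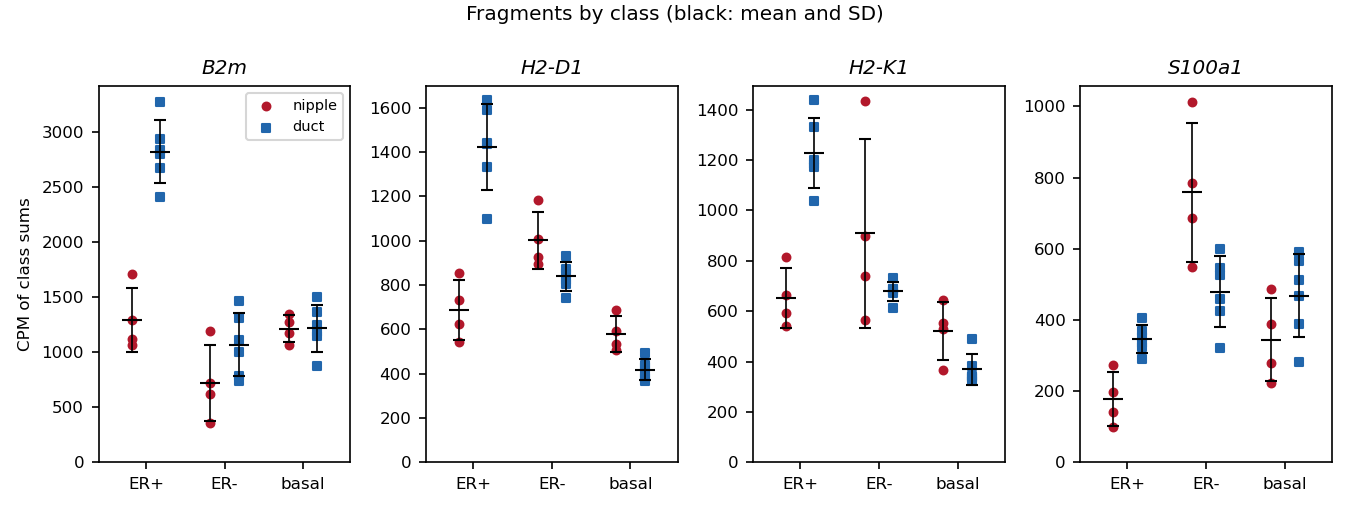
CPM of B2m, H2-D1, H2-K1 and S100a1 in the sums of ER+ luminal, ER- luminal and basal cells, with the y axis starting at 0. Each red point is a nipple and each blue square a duct fragment, and the black bars give the mean and SD. In ER+ cells all nipple fragments lie below all duct fragments in these genes, while H2-D1 and H2-K1 have higher nipple means in both other classes.

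The genes with the smallest p against ER- luminal cells were S100a6, H2-D1 and H2-K1. S100a6, a calcium-binding protein, stood at 3484 ± 387 against 4281 ± 848 CPM in ER+ cells, without a call (log2 difference -0.30, SE 0.12, edgeR adjusted p = 0.220), and at 8101 ± 1456 CPM in nipple and 4577 ± 288 CPM in duct in ER- luminal cells (term -1.07, SE 0.15, edgeR adjusted p = 0.000390). S100a1 stood there at 758 ± 194 CPM in nipple and 479.6 ± 99.1 CPM in duct (term -1.67, SE 0.26, edgeR adjusted p = 0.000404). Mgst3 stood there at 324 ± 89.1 CPM in nipple and 167 ± 48.5 CPM in duct (term -2.10, SE 0.35, edgeR adjusted p = 0.00139). In both, the order of locations was the opposite of that in ER+ cells. The terms of S100a6, S100a1 and Mgst3 were called in every alternative run. For Muc13 (term 1.36, SE 1.29, edgeR adjusted p = 0.865), Plb1 (term 3.49, SE 0.87, edgeR adjusted p = 0.135) and Anxa3 (term 0.03, SE 0.35, edgeR adjusted p = 0.996) the term was not called. ER- luminal cells held Plb1 at 255 ± 164 CPM in nipple and 86.6 ± 57.1 CPM in duct, so a difference between the luminal classes was not shown for it.

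Against basal cells the smallest p-values were those of Ptn, Hk2 and B2m. Hk2, a hexokinase of glycolysis, stood at 259 ± 35.8 against 289.7 ± 67.4 CPM in ER+ cells (log2 difference -0.16, SE 0.32, edgeR adjusted p = 0.886) and at 279.7 ± 70.02 CPM in nipple and 23.4 ± 11.3 CPM in duct in basal cells (term -3.71, SE 0.47, edgeR adjusted p = 1.37e-05), so that its difference lay in the basal cells. Perp stood at 912 ± 83.6 CPM in nipple and 1221 ± 144 CPM in duct in basal cells (term 1.21, SE 0.19, edgeR adjusted p = 0.000413). Ltbp1 stood there at 15.7 ± 14.01 CPM in nipple and 54.8 ± 31.1 CPM in duct (term 4.01, SE 0.75, edgeR adjusted p = 0.00327). Both had the opposite order of ER+ cells. The terms of Hk2, Perp and Ltbp1 were called in every alternative run. Col4a2 stood at 270.3 ± 93.8 CPM in nipple and 683 ± 133 CPM in duct in basal cells (term 2.73, SE 0.56, edgeR adjusted p = 0.0171), and its term was not called without duct fragment 62 (0.0539) or nipple fragment 23 (0.0619), or in thinned cells (0.270). The term of Gsto1 (term 1.07, SE 0.28, edgeR adjusted p = 0.0457) was lost in 10 of 15 alternatives, with edgeR adjusted p-values up to 0.248 (without nipple fragment 21). These were the thinning of cells (0.1496) and leaving out duct fragments 31 (0.0826), 32 (0.0526), 51 (0.0641), 52 (0.143), 61 (0.0951) or 62 (0.152), or nipple fragments 21, 23 (0.159) or 24 (0.140).

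For Upk3a, Fgb and Fgg no term was called. Against ER- luminal cells the terms were -1.21 (SE 7.41), 0.61 (SE 2.14) and -0.07 (SE 1.28) in that order. Against basal cells they were -1.71 (SE 7.99), 0.66 (SE 1.42) and -2.60 (SE 0.82). Nipple levels of Upk3a and Fgb in the other classes were at or near 0, so their terms cannot decide whether the difference was shared. In ER- luminal cells the nipple means of Upk3a, Fgb and Fgg were lower as well, none of them called in the own test of that class. Upk3a stood there at 0 ± 0 CPM in nipple and 19.4 ± 20.1 CPM in duct (log2 difference -6.11, edgeR adjusted p = 0.319). Fgb stood at 1.81 ± 3.62 and 96.5 ± 65.2 CPM (-5.68, 0.175) and Fgg at 52.4 ± 78.6 and 351 ± 278 CPM (-2.77, 0.503). Fgb was also lower in the nipple basal cells (0.541 ± 1.08 CPM in nipple and 36.96 ± 44.3 CPM in duct, own test, edgeR adjusted p = 0.00624), as was Upk3a (0 ± 0 CPM in nipple and 18.03 ± 28.3 CPM in duct, edgeR adjusted p = 0.0237). The low Fgb and Upk3a levels in ER- luminal and basal cells lie beside ER+ sums of 899 and 332 CPM in duct. The part of RNA from other wells in the levels of either class was not tested.

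**Figure D5:**
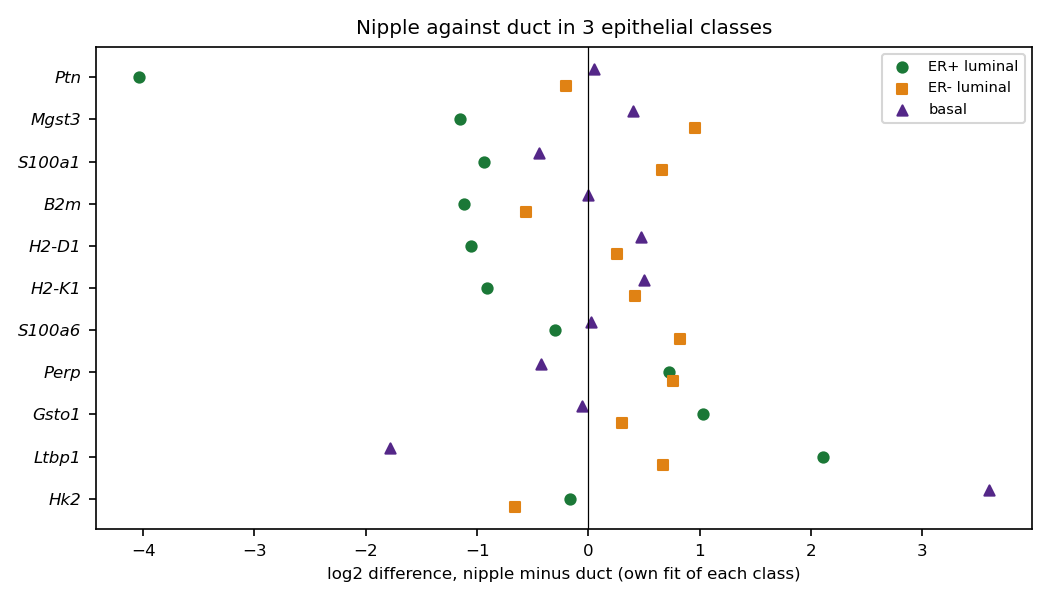
Log2 difference of nipple minus duct on the x axis for a selection of named genes, from the separate fit of each class. Each gene shown had a class by location term called against at least 1 other class. Col4a2, whose term was called against basal cells, is not shown. Green circles are ER+ luminal, orange squares ER- luminal and purple triangles basal cells. Ptn, Mgst3, H2-D1 and H2-K1 lie farther to the left in ER+ than in the other classes, while Hk2 lies to the right in basal cells.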

How the data were processed

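The authors dissected single nipple, duct and TEB fragments, sorted their cells into wells and made 3' SMART-seq libraries with UMIs. The submitters' processing notes name Trim Galore, FastQC, UMI-tools, STAR, featureCounts and mm10, with no versions. The authors deposited raw UMI counts of 17721 genes and 67 spike-ins in 1419 cells, not normalized. The spike-ins took 0.758% of UMIs and were left out of sums.

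Cells with at most 5% spike-in UMIs, 5000 to 120000 UMIs and 200 to 6000 genes were kept (1317). Log-scaled counts were turned into z-scores per gene, and a cell took the class with the highest mean z-score over its marker genes (basal: Krt5, Krt14, Krt17, Acta2, Mylk; ER+ luminal: as given above; ER- luminal: Krt18, Elf5, Kit, Wfdc18, Ltf, Aldh1a3; fibroblast: Col1a1, Col3a1, Dcn, Pdgfra; myeloid: Cd68, Lyz2, C1qa, Tyrobp; endothelial: Pecam1, Cdh5, Kdr, Emcn). No doublet caller was run. The marker rule, the lists and the tests were chosen with earlier results of these data known.

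UMIs of a class were summed per fragment (at least 5 cells). The 16 fragments were fitted with edgeR 4.0.16 in R 4.3.3 (TMM, filterByExpr, robust quasi-likelihood test, location as the only term, contrast nipple minus duct, Benjamini-Hochberg adjustment, threshold 0.05). The class by location terms had the fragment as a block. CPM of a sum are on the TMM-scaled library size, and the summed levels of marker lists on the plain total. Cells and depth were compared by two-sided exact permutation tests with SciPy 1.17.1. Counting error is all that the intervals cover. To estimate RNA carried over from other wells, the summed rate of 16 fibroblast and myeloid genes in each ER+ cell was divided by their rate over all cells pooled, and the median over the cells of a fragment was taken. Multiplying this share by a gene's pooled rate and by the fragment's ER+ total gave the UMIs expected. By construction the expected share is tied to the summed level of those 16 genes, and the shares of single genes can differ. Among the fibroblast genes of the marker rule it ran from 38.3% for Dcn to 173% for Pdgfra in nipple. Symbols were looked up in GENCODE M21 (GRCm38) for positions, and 50 of 50 named genes matched. The scripts were tested on simulated data.

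Genes are named by rule: the 10 with the largest log2 difference in each direction among called genes whose mean reached 50 CPM at the location with the higher level, no overlap of fragments and under 50% expected from other wells, rule genes left out; up to 3 called members of each list with the smallest p, or the 1 with the smallest p where none was called; the ER+ marker genes, without a test; and the 3 genes with the smallest p of each class by location term. Some genes that the rule names are not reported here, though counts over all genes hold them. Other genes are said to be named after their values were seen, except members of lists given as levels only.

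Alternatives were a spike-in limit of 10%, a UMI minimum of 10000, a class score margin of 0.25, at least 10 cells per sum, TEB left out of the fit, DESeq2 1.42.0, RLE size factors, library size alone, no filter on low counts, thinning to 5000 UMIs, 7 cells per fragment, leaving out genes with over 20% from other wells, duct fragments by title digit and each fragment. Subtracting UMIs expected from other wells, and leaving out fragments for cells and depth, were added after the data were seen.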

Additional observations from a re-analysis of the deposited data

Results flagged for a closer look

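Among 106 groups of fragments tested over the named genes and the cell and depth measures, 8 held 1 fragment far from the others, where chance gives about 1 in 20. The values that follow are the gap to the nearest fragment as a share of the group's range. In nipple, fragment 22 was high in Cldn8 (0.875, 125 CPM where the others reached 48.4) and in Lrg1 (0.949, 40.7 CPM where the others reached 11.2). Fragment 21 was high in Grb14 (0.932) and Col4a2 (0.959), and fragment 23 in Eif4ebp3 (0.933). In duct, fragment 62 was high in Syn2 (0.628) and fragment 32 in Igfbp7 (0.802), and fragment 31 was low in Mmp2 (0.657).

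The difference between nipple and duct was itself different in ER+ luminal cells and another epithelial class for the following genes, by the class by location term of edgeR. Against ER- luminal cells the terms on the log2 scale were -4.01 for Ptn, -2.10 for Mgst3, -1.67 for S100a1, -1.29 for H2-D1, -1.24 for H2-K1 and -1.07 for S100a6. Against basal cells they were -4.19 for Ptn, -3.71 for Hk2, 4.01 for Ltbp1, 2.73 for Col4a2, -1.47 for H2-D1, 1.21 for Perp, -1.09 for B2m and 1.07 for Gsto1. In Hk2 and S100a6 the ER+ difference was not called, and the levels of the other class moved. Mgst3 and S100a1 had opposite orders of nipple and duct means in ER+ and ER- luminal cells.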

How the results depend on the processing

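Of 189 genes called in the nipple against duct comparison, the count was 321 by DESeq2 (186 of the 189 shared), 101 with cells thinned to 5000 UMIs (67 shared, 3101 genes tested), 17 with 7 cells per fragment (15 shared) and 113 without the duct fragments whose title begins with 3 (108 shared). In the other alternatives it lay between 131 and 234, and without single fragments between 144 and 222. For the class by location term against ER- luminal cells, the 25 calls became 16 with TEB left out of the fit, 79 by DESeq2 and 84 without a filter on low counts, and 13 to 26 without single fragments, the fewest without nipple fragment 22, with 16 without duct fragment 32 and 15 without duct fragment 62. Against basal cells the 108 calls became 272 by DESeq2, 199 without the filter and 64 in thinned cells, and 61 to 110 without single fragments, the fewest without nipple fragment 23. Fewer genes are tested in thinned cells. The causes of the other changes were not tested.

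Igfbp6 had a log2 difference of -3.24 once UMIs expected from other wells were subtracted. The difference in median genes per ER+ cell was -7.25 with the class score margin of 0.25 and ranged from -24.3 to 285 without single fragments. Over 50 named genes and 26 alternatives, 1118 values kept direction and side of the threshold, 139 lost a call, 7 gained one and 1 reversed. Of the 39 called genes among them, 28 of 34 tested lost their call with 7 cells per fragment, 8 of 29 in thinned cells, 8 with the margin of 0.25, 6 with TEB left out and 4 of 37 with other wells subtracted. Without duct titles beginning with 3, 9 lost it (Cldn8, Akap2, Lrg1, Grhpr, Wnt5a, Tjp1, Isg20, Wfdc2 and Csn3). Without those beginning with 5, 9 did (Cldn8, Fgfr2, Wnt5a, Tjp1, Perp, S100a4, Isg20, Acsl3 and Csn3). Without those beginning with 6, 5 did (Eif4ebp3, Grhpr, S100a4, Wfdc2 and Acsl3). Plb1, Upk3a, Ptn, B2m and H2-D1 kept their calls in all 26 alternatives. No paired analysis was possible because nipple and duct fragments share no title number. Leaving out ER+ cells with at least 10 UMIs of the basal or fibroblast marker genes gave no value, since 40 of 43 nipple and 131 of 210 duct cells held them and no nipple sum was left. Nipple depth limits what genes at few CPM can show, since the smallest sum held 301702 UMIs.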

Other observations

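Other called genes were looked at after their values were seen. The galactosyltransferase B4galt1 stood in nipple ER+ cells at 337 ± 101 against 139 ± 28.4 CPM (log2 difference 1.29, SE 0.21, edgeR adjusted p = 0.000543) and the N-acetylglucosaminyltransferase B3gnt2 at 191 ± 78.0 against 72.8 ± 7.60 CPM (log2 difference 1.40, SE 0.25, edgeR adjusted p = 0.00144), without overlap of fragments. B3galt4 had 46 UMIs in nipple and 3 in duct, a ratio of pooled rates of 53.5 (exact 95% counting interval 17.2 to 269). Its levels were 11.2, 67.8, 5.51 and 28.7 CPM in nipple fragments 21 to 24. The choline transporter Slc44a4 (218 ± 109.6 against 77.8 ± 16.5 CPM, log2 difference 1.46, edgeR adjusted p = 0.00178) and the apical membrane protein Prom2 (396 ± 85.3 against 179 ± 54.4 CPM, log2 difference 1.14, edgeR adjusted p = 0.00761) were higher as well. With 7 cells per fragment none of B4galt1, B3gnt2, Slc44a4 and Prom2 was called, and with thinned cells B3gnt2 was not.

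Lower in nipple were Pkm (576 ± 28.4 against 917 ± 158 CPM, log2 difference -0.67, edgeR adjusted p = 0.00611) and Gapdh (631 ± 54.6 against 930.0 ± 175 CPM, log2 difference -0.56, edgeR adjusted p = 0.0241), and the actin-binding thymosin Tmsb4x (2851 ± 215 against 5372 ± 424 CPM, log2 difference -0.91, edgeR adjusted p = 0.000856). Gapdh was not called without duct fragment 62 (0.0712), nipple fragment 21 (0.0739) or nipple fragment 24 (0.0659), by edgeR adjusted p. Tmsb4x kept its call in all 26 alternatives. Several pseudogenes, among them Rps19-ps3, Gm5506 and Gm6251, were also called lower in nipple, and since such genes share sequence with expressed parents, how reads were divided between them is uncertain.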
